A study of Mus musculus with 36 samples.

Results

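The mitochondrial genome transcripts were the 37 gene entries, of 37561 in each of 6 expression tables, whose symbol starts with mt-. They comprise 13 protein genes, 2 ribosomal RNA genes and 22 transfer RNA genes, and each of the 37 was present in all 6 tables. The protein genes were described in full, and the ribosomal and transfer RNAs were kept apart because ribosomal RNA had been depleted and many of these entries were listed at 0. The choice used the symbol alone and no measured value.

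The study followed mouse embryonic stem cells of the line AB2.2 as they differentiated, and asked how loss of the long noncoding RNA LncCPR bears on the heart-forming lineage. Control AB2.2 cells and LncCPR-KO cells were each sampled undifferentiated (day 0, kept with the cytokine LIF) and as whole embryoid bodies, hanging-drop aggregates grown without LIF, at days 3, 5, 8, 10 and 12. There were 3 libraries in each of 12 groups, 36 in all. The knockout was made in AB2.2 by transfecting a pair of Cas9 and guide constructs and sorting single cells. The labels do not say how many sorted lines the 18 LncCPR-KO libraries come from, nor whether replicates were separate cultures, so p-values measure only the spread between these libraries. No entry is named LncCPR, so the deletion itself was not checked here.

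Mitochondria carry their own small circular genome, which is transcribed from both strands into long precursors. The transfer RNAs lie between the other genes like punctuation, and cutting them out releases the messenger and ribosomal RNAs. Every protein the genome encodes is a subunit of the respiratory chain or the ATP synthase, and the nucleus supplies the polymerase, the factors that stabilise these RNAs and the proteins of the mitochondrial ribosome. Heart muscle is known for abundant mitochondria and high levels of these transcripts.

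Of the 13 protein genes, 7 encode subunits of complex I (mt-Nd1 to mt-Nd6 and mt-Nd4l), 1 encodes cytochrome b of complex III (mt-Cytb), 3 encode subunits of complex IV (mt-Co1, mt-Co2 and mt-Co3) and 2 encode subunits of the ATP synthase, complex V (mt-Atp6 and mt-Atp8). In the GRCm38 annotation (GENCODE M21) 12 lie on the plus strand and 1, mt-Nd6 at chrM:13552-14070, on the minus strand. The genes are packed so closely that some share bases. The last 43 bases of mt-Atp8 (chrM:7766-7969) are also the first of mt-Atp6 (chrM:7927-8607), and the last 7 of mt-Nd4l (chrM:9877-10173) are the first of mt-Nd4 (chrM:10167-11544). Both upstream partners are printed because they were the lowest protein genes of all. The capitals mark the shared bases:
mt-Atp8: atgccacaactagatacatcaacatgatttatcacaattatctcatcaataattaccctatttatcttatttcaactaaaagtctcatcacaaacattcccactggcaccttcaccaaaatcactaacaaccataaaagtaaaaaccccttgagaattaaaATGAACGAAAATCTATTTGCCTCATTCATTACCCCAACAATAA
mt-Nd4l: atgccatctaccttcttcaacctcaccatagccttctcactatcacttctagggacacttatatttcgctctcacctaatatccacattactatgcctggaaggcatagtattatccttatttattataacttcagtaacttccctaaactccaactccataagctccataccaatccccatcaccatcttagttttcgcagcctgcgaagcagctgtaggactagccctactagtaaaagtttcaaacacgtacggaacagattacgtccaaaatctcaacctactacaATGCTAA

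A further feature of the sequence divides the protein genes. The nuclear chromosome 1 of GRCm38 holds a near-identical copy of one stretch of the mitochondrial genome, chrM:6390-11042, 4653 bases long. The copy lies at chr1:24611535-24616197 on the minus strand and is annotated as a run of unprocessed pseudogenes in the same gene order. Gm28661 matches 681 bases of mt-Co2, Gm10925 matches 678 of mt-Atp6, Gm28437 matches 783 of mt-Co3 and Gm10222 matches 294 of mt-Nd4l, each at 100% identity. Gm28439 matches 876 bases, 63.6% of mt-Nd4, also at 100%. The other matches each carry a single different base. Gm28438 covers 345 bases of mt-Nd3 with the substitution T3C, and Gm29216 covers 483 bases, 31.3% of mt-Co1, with A1066T (mitochondrial base, position from 1 at the gene's first base, base of the copy). Both pairs are shown, 60 bases each, with the differing base in capitals, because nothing else in these matches tells a mitochondrial read from a nuclear one:
mt-Nd3: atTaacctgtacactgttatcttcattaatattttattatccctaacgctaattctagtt
Gm28438: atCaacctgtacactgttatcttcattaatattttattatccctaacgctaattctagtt
mt-Co1: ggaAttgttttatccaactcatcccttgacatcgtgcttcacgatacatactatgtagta
Gm29216: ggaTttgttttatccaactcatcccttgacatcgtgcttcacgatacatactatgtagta

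The values are FPKM, fragment numbers scaled by transcript length and by library total, as the authors deposited them, so levels of different genes are compared per length. By that measure the protein genes fell into 2 tiers. Genes of the upper tier had medians over the 36 libraries from 300.4 to 3976 FPKM. mt-Co1, the catalytic core of cytochrome c oxidase, was the highest at 3976 FPKM (range 2537 to 6164). It was followed by mt-Nd1 at 1584 (823 to 2915), mt-Cytb at 760.5 (360.4 to 1345), mt-Nd2 at 572 (333 to 979), mt-Nd5 at 493 (321 to 787), mt-Nd6 at 487 (294 to 1303) and mt-Nd4 at 300.4 (148 to 436).

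Genes of the lower tier had medians from 0.278 to 22.6 FPKM. mt-Co2, which holds the first copper centre of the oxidase, stood at 22.6 FPKM (9.07 to 45.2), mt-Co3 at 15.2 (7.16 to 38.9) and mt-Atp6, the proton channel subunit, at 8.83 (3.995 to 14.3). mt-Nd3 had a median of 1.81 FPKM (0.224 to 7.34). mt-Atp8 had a median of 0.448 FPKM and was listed at 0 in 8 libraries, and mt-Nd4l had a median of 0.278 and was listed at 0 in 15.

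**Figure D1:**
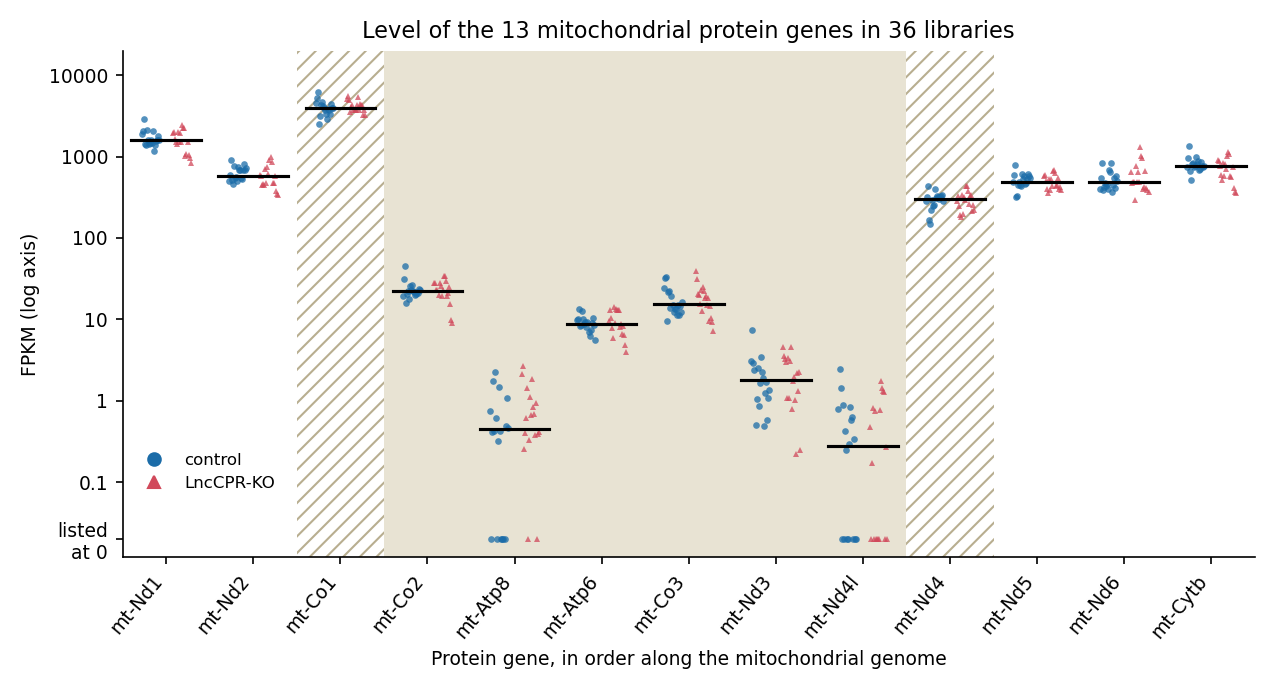
Each point is the FPKM of 1 protein gene in 1 library (log axis), with genes in their order along the mitochondrial genome, circles for control, triangles for LncCPR-KO and a black bar at the median of 36 libraries. The shaded genes lie wholly in the stretch copied on chromosome 1 and the hatched genes partly, and the shaded genes have the 6 lowest medians, 0.278 to 22.6 FPKM.

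The order of levels was much the same from library to library. mt-Co1 lay above mt-Nd1, and mt-Nd1 above mt-Cytb, in 36 of 36 libraries. mt-Cytb lay above mt-Nd2 in 35 and mt-Nd2 above mt-Nd5 in 31. mt-Nd5 and mt-Nd6 could not be ordered, since mt-Nd5 was the higher in 16 of 36. In the lower tier mt-Co2 lay above mt-Co3 in 30 libraries, and mt-Atp8 above mt-Nd4l in 20.

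The 6 genes of the lower tier are exactly those that lie wholly within the stretch copied on chromosome 1. Of the windows of 50 bases in these genes, 100% of those in mt-Co2, 99.9% in mt-Co3, 99.5% in mt-Atp6, 98.0% in mt-Nd3 and 98.8% in mt-Nd4l also occur in another annotated transcript. The share was 0% in mt-Nd1, mt-Nd6 and mt-Cytb, 8.19% in mt-Nd2, 7.61% in mt-Nd5, 62.2% in mt-Nd4 and 51.1% in mt-Co1. In mt-Co1 it exceeds the 31.3% of the gene that Gm29216 covers, so other annotated transcripts also hold parts of that gene. The share was also 0% in mt-Atp8. Its last 43 bases, shared with mt-Atp6, lie inside the annotated copy Gm10925 but are shorter than a window, and the rest lies between annotated copies. How reads that align to several places were counted is not given in the sources used here. The levels of the lower tier are therefore uncertain, as in part are those of mt-Nd4, mt-Co1, mt-Nd2 and mt-Nd5. The part of such reads in the difference between tiers was not tested.

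Entries of 2 of these pseudogenes were present in the tables. The entry with the symbol Gm10925, whose identifier differs from that in GENCODE M21, had a median of 13.004 FPKM (5.64 to 34.9) and lay above mt-Atp6 in 31 of 36 libraries. Gm10222 had a median of 0.502 FPKM and was listed at 0 in 8 libraries. Neither reached the level of any gene of the upper tier.

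Of the libraries, control replicate 1 of day 3 stood apart: its nuclear genes had a median log2 ratio of -0.48 to the day's libraries, and without it 0 protein genes passed at that day, as with it. The summed FPKM of the 13 genes ran from 5783 to 13478 per library, 1.52% to 3.61% of the library's total. Levels of different days come from separate tables that may have been scaled separately, and were not tested against each other. In control cells the sum was 10916 ± 2345 FPKM (SD, n = 3, as for all such values) at day 0. At days 3, 5, 8, 10 and 12 it was 7244 ± 1687, 8281 ± 598, 8330 ± 520, 7636 ± 286 and 8719 ± 286 FPKM. In LncCPR-KO cells it was 9891 ± 737 FPKM at day 0, and then 8068 ± 1330, 8017 ± 661, 11052 ± 1030, 8051 ± 643 and 6123 ± 360. The 2 lines overlapped at days 0, 3, 5 and 10. The knockout libraries lay wholly above the control libraries at day 8 and wholly below them at day 12. As a share of the library's total, the sum was 2.62% ± 0.122 in control and 3.06% ± 0.327 in knockout at day 8. The highest control library was at 2.747% and the lowest knockout library at 2.758%. Knockout over control was thus 1.33 for the sum and 1.17 for the share at day 8, and 0.702 and 0.640 at day 12. The totals behind these shares include the ribosomal RNA mt-Rnr2. It was listed at 69239 FPKM in knockout replicate 1 of day 8 and at 53138 FPKM in knockout replicate 3 of day 12. Those libraries had the lowest knockout shares of their days. In the other libraries of both days mt-Rnr2 was listed at 0, so it lowers both ratios of shares. Shares without it are not given here.

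**Figure D2:**
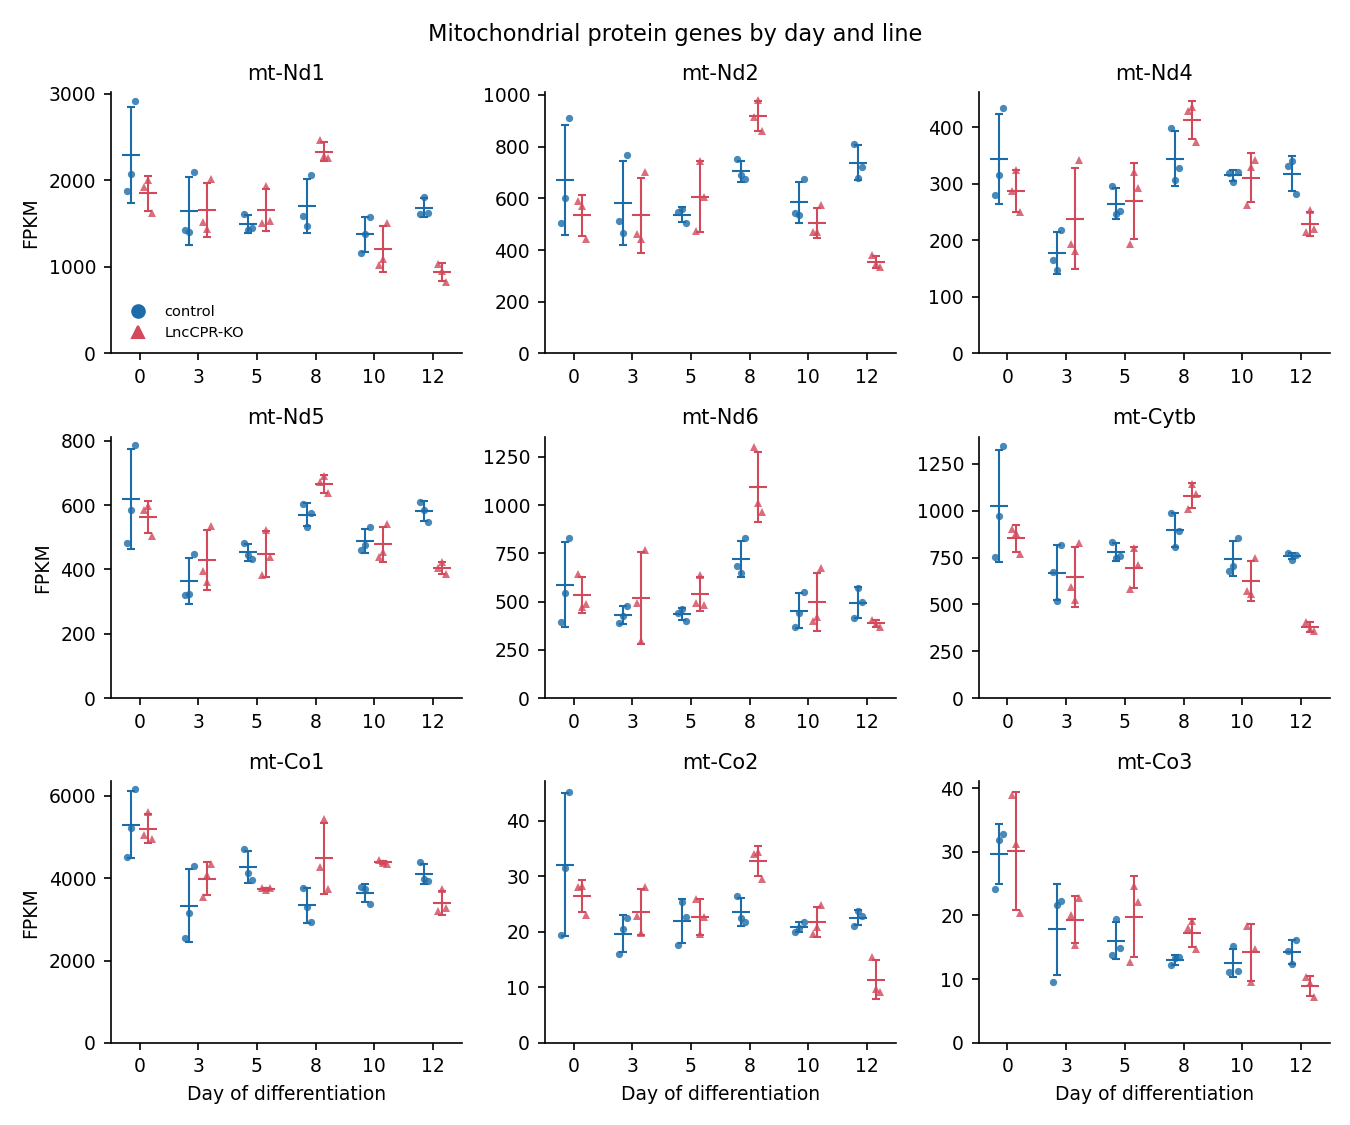
FPKM of 9 protein genes (linear axes from 0) by day, with 1 point per library and the mean and SD of 3 libraries, circles for control and triangles for LncCPR-KO. The knockout libraries of mt-Nd1, mt-Nd2, mt-Cytb, mt-Co2 and mt-Co3 lie wholly above the controls at day 8 and wholly below them at day 12.

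The lines were compared day by day, using only that day's table. All genes whose mean reached 1 FPKM entered limma on the scale log2(FPKM + 1), with Benjamini-Hochberg adjustment over all of them and a threshold of 0.05. This scale understates the change of low genes. Of the 13 protein genes, 12 were tested at days 0 and 3 and 11 at the later days; mt-Nd4l passed the filter at no day and mt-Atp8 only at days 0 and 3. The numbers past the threshold were 0, 0, 0, 0 and 0 at days 0, 3, 5, 8 and 10, and 7 at day 12, all lower in LncCPR-KO. Over all genes tested 14.5%, 1.75%, 10.4%, 3.28% and 20.2% passed at days 0 to 10 in that order, and 6.71% passed at day 12, 3.48% as lower. At an unadjusted limma p under 0.05 the members numbered 0, 1, 0, 3, 0 and 9. The share of all genes at that unadjusted threshold is not given here, so these counts lack a background and only describe.

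All 7 calls were thus at day 12. mt-Nd2 (chrM:3914-4951), a membrane subunit of complex I, stood at 811, 678 and 723 FPKM in the control libraries and at 379.5, 347 and 333 in the knockout libraries. Means were 737 ± 67.4 and 353 ± 23.7 FPKM, a log2 difference of -1.06 (SE 0.12, limma adjusted p = 0.0016858). mt-Cytb (chrM:14145-15288) stood at 772, 738 and 765 FPKM in control and 408, 367 and 360.4 in knockout, a log2 difference of -1.002 (SE 0.11, limma adjusted p = 0.00150977). For both genes every knockout library lay below the lowest control library, and the ratio of the means was 0.479 for mt-Nd2 and 0.499 for mt-Cytb.

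mt-Nd1 (chrM:2751-3707), which forms part of the quinone site of complex I, stood at 1615, 1809 and 1619 FPKM in control and 1034, 954 and 823 in knockout (log2 difference -0.85, SE 0.14, limma adjusted p = 0.0107). mt-Co2 (chrM:7013-7696), of the lower tier, stood at 21.0, 23.8 and 22.9 FPKM in control and 15.4, 9.69 and 9.07 in knockout (log2 difference -0.96, SE 0.18, limma adjusted p = 0.0153). Neither gene's groups overlapped.

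The other genes called lower at day 12 fell by less. They were mt-Nd5 (581 ± 31.4 FPKM in control and 405 ± 19.8 in knockout, log2 difference -0.52), mt-Nd4 (318 ± 30.8 and 229 ± 21.6, -0.47) and mt-Co3 (14.3 ± 1.93 and 8.93 ± 1.61, -0.63), with limma adjusted p of 0.0260, 0.0484 and 0.0447. mt-Nd4 and mt-Nd5 encode proton-pumping subunits of complex I, and mt-Co3 the third core subunit of the oxidase.

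Not every member passed. mt-Co1 stood at 4384, 3988 and 3933 FPKM in control and 3204, 3742 and 3272 in knockout, groups that did not overlap but gave a log2 difference of only -0.27 (SE 0.17, limma adjusted p = 0.364). mt-Nd6, the minus-strand gene, stood at 495 ± 78.7 and 387 ± 18.6 FPKM (-0.34, adjusted p = 0.162). mt-Atp6 stood at 8.17 and 5.10 FPKM (-0.57, adjusted p = 0.153) and mt-Nd3 at 1.00 and 1.28 FPKM (0.098, adjusted p = 0.891). In 9 of the 11 tested genes the knockout libraries lay wholly below the control libraries, against 11.8% of all genes tested that day, and the exceptions were mt-Nd3 and mt-Atp6. The members' median log2 difference was -0.57, beside 0.054 over all genes.

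The calls of mt-Nd2 and mt-Cytb held in all 12 alternatives run for that day, and those of mt-Nd1 in 10, of mt-Co2 in 9, of mt-Nd5 in 5 and of mt-Nd4 and mt-Co3 in 4 each. Without LncCPR-KO replicate 1, 2 or 3 the number called was 4, 2 and 3, without control replicate 1 it was 4, and with no filter on low values it was 2.

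**Figure D3:**
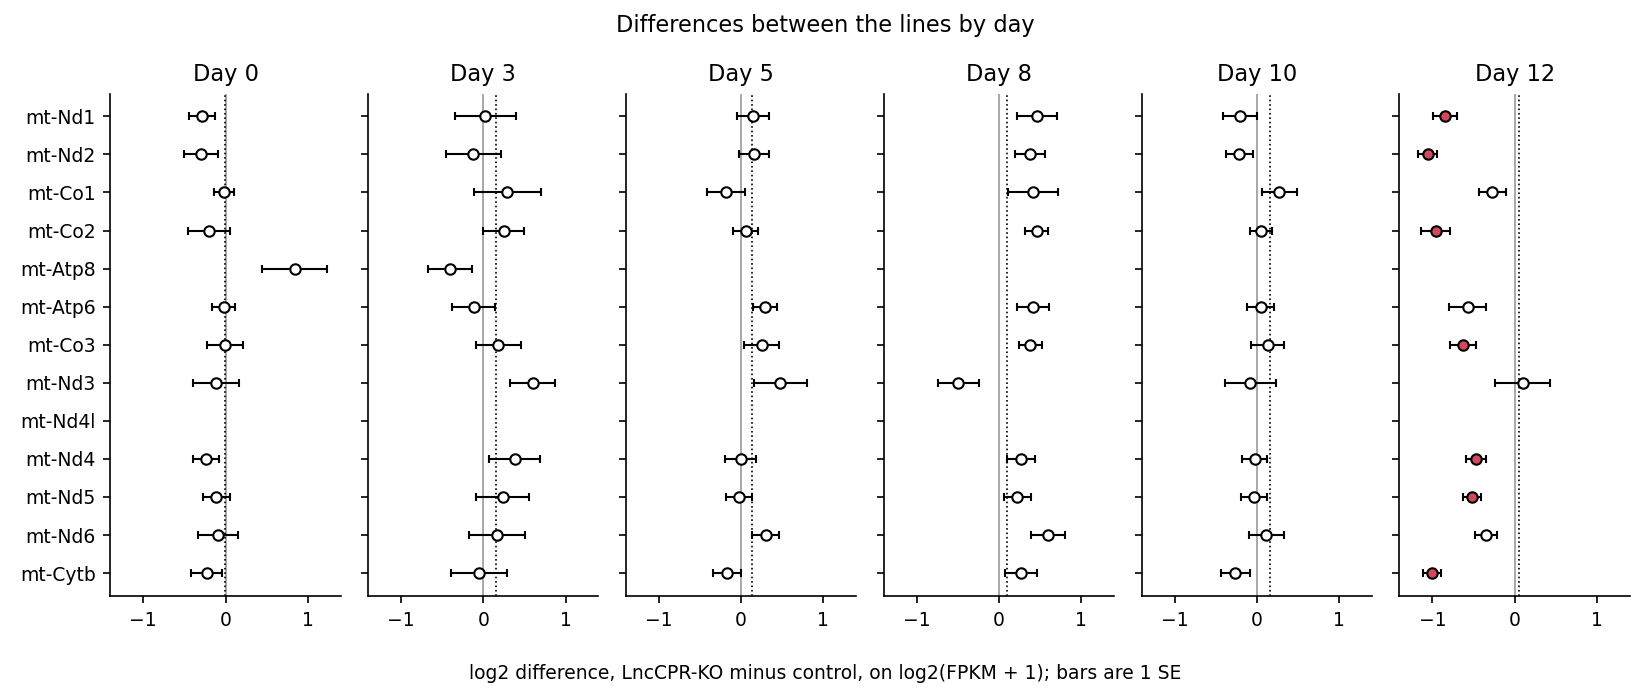
Log2 difference of LncCPR-KO minus control for each tested protein gene by day (limma on log2(FPKM + 1), bars of 1 SE), filled where the adjusted p is under 0.05. The dotted line is the median of all genes tested that day and the solid line is 0. The 7 filled points are all at day 12 and all left of 0.

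At day 8 the values lay the other way, but none passed the threshold. The knockout mean was above the control mean in 10 of 11 tested genes, with mt-Nd3 the exception, and the members' median log2 difference was 0.38, beside 0.092 over all genes. Of all genes tested that day, 36.2% had a log2 difference below 0. mt-Nd6 stood at 686, 647 and 828 FPKM in control and 1303, 1011 and 966 in knockout (log2 difference 0.60, SE 0.21, limma adjusted p = 0.176). mt-Co2 stood at 23.6 ± 2.55 and 32.7 ± 2.72 FPKM (0.46, SE 0.14, adjusted p = 0.110), and mt-Nd1 at 1706 ± 310 and 2331 ± 114 (0.46, SE 0.24, adjusted p = 0.353).

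In 7 genes (mt-Nd1, mt-Nd2, mt-Nd5, mt-Nd6, mt-Cytb, mt-Co2 and mt-Co3) the day 8 knockout libraries lay wholly above the control libraries, against 14.2% of all genes tested. After rescaling the libraries by the median ratio of nuclear genes, mt-Co2 passed as higher (adjusted p = 0.0466).

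At the other days few of the groups lay apart. At day 0 the log2 differences of 11 of 12 tested genes were below 0, beside 51.5% of all genes, but the groups of all 12 overlapped. mt-Nd1 was at 1875, 2078 and 2915 FPKM in control and 1927, 2000 and 1623 in knockout, with control replicate 3 the highest of all 36 libraries for this gene. At day 3 the groups of all 12 tested genes overlapped again. At day 5 the knockout libraries of mt-Nd6 lay wholly above control (435 ± 31.1 and 539 ± 88.0 FPKM) and those of mt-Co1 wholly below (4267 ± 385 and 3742 ± 29.7 FPKM). At day 10 mt-Co1 lay wholly above control (3633 ± 220 and 4383 ± 43.1 FPKM). Over all genes tested, 26.1% lay wholly above and 7.83% wholly below at day 5, and 30.9% wholly above at day 10. The share of all genes lying apart is not given here for days 0 and 3.

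Whether the knockout difference changed with the day was tested over all 36 libraries with limma's F test of the genotype by day interaction. It passed for 4 of the 11 genes tested, and for 17.1% of all genes. These were mt-Co2 (adjusted p = 0.00637304), mt-Nd2 (0.00655647), mt-Nd1 (0.0144577) and mt-Cytb (0.0156166). All 4 had their highest knockout values relative to control at day 8 and their lowest at day 12. The number that passed was 0, 1 or 2 without LncCPR-KO replicate 2, 3 or 1 of every day, 1 without control replicate 2, and 3 without the 4 libraries in which mt-Rnr2 was listed above 0. Averaged over days, 0 of 11 genes passed in limma, 1 had an unadjusted p under 0.05, and 33.1% of all genes passed. That gene was mt-Cytb, with a log2 difference of -0.24 (SE 0.097, adjusted p = 0.0515).

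Ratios between genes of 1 library do not depend on the library's total, and are given as descriptions without a test. The ratio of mt-Co1 to mt-Cytb was 5.41 ± 0.270 in control and 9.04 ± 1.17 in knockout at day 12, and 4.96 ± 0.869 and 7.15 ± 1.14 at day 10, in both cases without overlap. At day 8 it was 3.73 ± 0.412 and 4.14 ± 0.665, with overlap. The size depended on the partner gene, and mt-Cytb was itself called lower at day 12. With mt-Nd5 as partner the ratio was 7.06 ± 0.216 and 8.42 ± 0.469 at day 12, without overlap. At day 10 that ratio was 7.48 ± 0.977 and 9.25 ± 1.07, with overlap. mt-Co1 took 47.0% ± 1.65 of the summed FPKM of the 13 genes in control and 55.6% ± 2.60 in knockout at day 12, while mt-Cytb took 8.70% ± 0.345 and 6.20% ± 0.526. The shares of these 2 genes did not overlap between the lines at that day.

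The ratio of mt-Nd2 to its upstream neighbour mt-Nd1 was higher at later days in both lines. In control it was 0.290 ± 0.0215 at day 0, and 0.353 ± 0.0177, 0.360 ± 0.0282, 0.423 ± 0.0824, 0.428 ± 0.0404 and 0.441 ± 0.0637 at days 3, 5, 8, 10 and 12. In knockout it was 0.288 ± 0.0163 at day 0, 0.424 ± 0.0408 at day 10 and 0.378 ± 0.0231 at day 12. In both lines every library of day 10 lay above every library of day 0.

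The ratio of mt-Nd6 to mt-Nd5, which lie on opposite strands with their ends overlapping, was highest at day 8. It was 1.26 ± 0.155 in control and 1.64 ± 0.263 in knockout, and the lines did not overlap. They also did not overlap at day 5 (0.961 ± 0.0673 and 1.204 ± 0.0889). Whether fragments were counted by strand is not given in the sources used here, so signal of mt-Nd6 and of the RNA opposite it cannot be told apart.

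**Figure D4:**
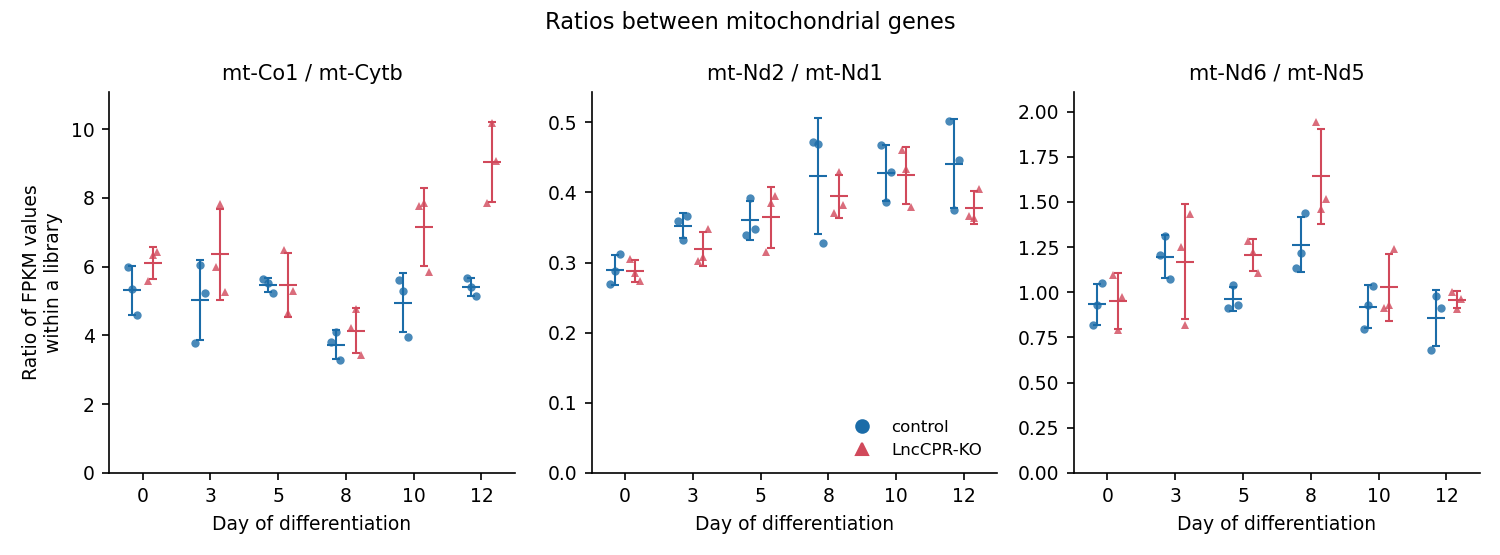
Ratio of FPKM between pairs of mitochondrial genes within each library (linear axes from 0) by day, with 1 point per library and the mean and SD of 3, circles for control and triangles for LncCPR-KO. The mt-Co1 to mt-Cytb ratio of the knockout lies wholly above control at days 10 and 12.

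The upper-tier genes varied together among replicates. Across the 36 libraries, the deviations of their log2 values from the group means correlated at r from 0.176 (mt-Nd6 with mt-Co1) to 0.952 over 21 pairs, with a median of 0.780. These points share the scaling of their library, so the values only describe.

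The ribosomal RNAs of the mitochondrion are given apart. mt-Rnr1 (chrM:70-1024, the small subunit RNA) was listed at 13673 to 38646 FPKM, median 19590, far above any messenger although ribosomal RNA had been depleted. Its day 12 values were 21397 ± 3379 FPKM in control and 21037 ± 2690 in knockout, groups that overlapped. At day 0 it stood at 17145, 15566 and 17393 FPKM in control and 19119, 21293 and 33987 in knockout, without overlap (limma adjusted p = 0.132). At day 5 it stood at 36873, 16820 and 19882 FPKM in control and 16122, 16270 and 16019 in knockout, again without overlap but in the other direction (adjusted p = 0.440). Its libraries ranked in the same order by replicate number in both lines at days 3, 8 and 10, and not at days 0, 5 and 12.

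mt-Rnr2 (chrM:1094-2675, the large subunit RNA) was listed at 0 in 32 of 36 libraries, and a listed 0 can be a failed estimate. In the other 4 it was very high: 38464 and 49728 FPKM in control replicates 1 and 2 of day 3, 69239 in LncCPR-KO replicate 1 of day 8 and 53138 in LncCPR-KO replicate 3 of day 12. These values were 12.4% to 17.2% of their library's FPKM. No fold or test is given for this gene. With libraries rescaled to the sum without mitochondrial entries, the same 7 protein genes passed as lower at day 12.

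**Figure D5:**
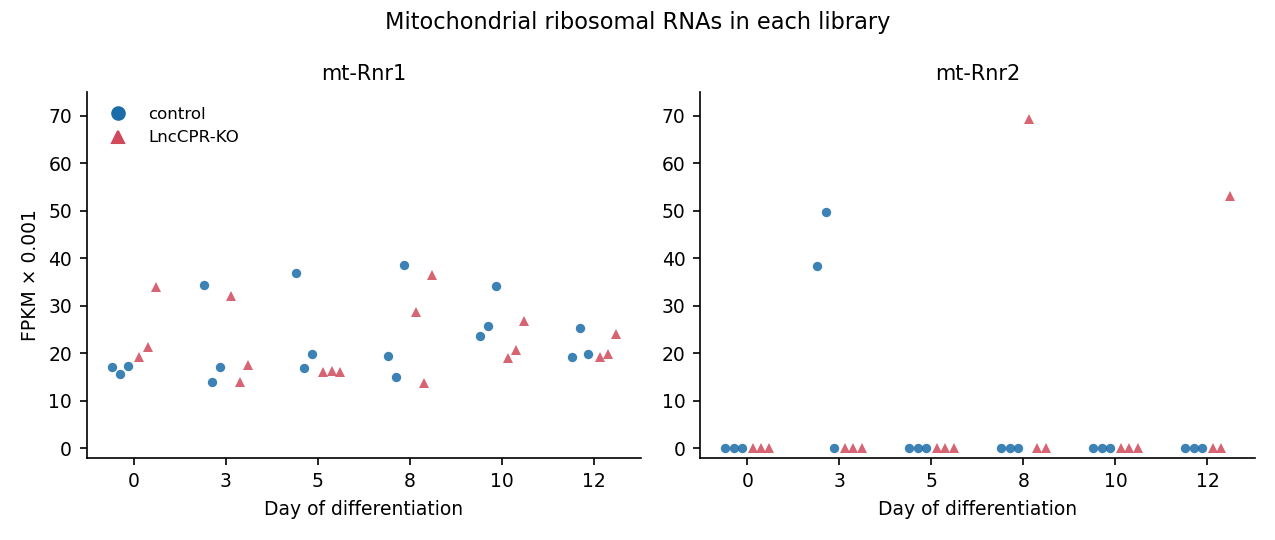
FPKM multiplied by 0.001 of the mitochondrial ribosomal RNAs in each library by day (linear axis), circles for control and triangles for LncCPR-KO. mt-Rnr1 is at 13673 FPKM or more in every library, and mt-Rnr2 is above 0 in 4 libraries.

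The 22 transfer RNA genes, 59 to 75 bases long, were mostly listed at 0. Of their 792 values 24 were above 0, between 0.911 and 2.57 FPKM, in 20 libraries. 17 of the genes were at 0 throughout, and the most often listed, mt-Tg, was above 0 in 9 libraries. mt-Tg, the glycine transfer RNA at chrM:9391-9458, is printed whole to show how short such a gene is:
mt-Tg: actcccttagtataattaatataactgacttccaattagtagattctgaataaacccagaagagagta

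The nuclear genes that serve this genome were read beside it. At day 12, of 23 tested genes for transcription and maintenance of the mitochondrial genome 1 was called higher and 0 lower, of 29 for processing and stability of its RNA 0 and 0, and of 75 proteins of the mitochondrial ribosome 2 and 0. Over all genes 3.22% were called higher and 3.48% lower that day. The lists' median log2 differences were 0.11, 0.0068 and 0.14.

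Among named factors, Tfam, which packages the genome and starts its transcription, stood at 44.2 ± 6.10 FPKM in control and 44.3 ± 7.14 in knockout at day 12 (limma adjusted p = 0.999). The mitochondrial RNA polymerase Polrmt stood at 3.88 ± 0.773 and 4.71 ± 1.08 FPKM (adjusted p = 0.511), and its partner Tfb2m at 1.68 ± 0.542 and 1.26 ± 0.439 (0.552). Lrpprc, which stabilises mitochondrial messengers together with Slirp, stood at 30.1 ± 2.43 and 30.5 ± 4.82 FPKM (0.981), and Slirp, listed as 1810035L17Rik, at 29.999 ± 10.9 and 34.7 ± 5.93 (0.550). None of these 5 passed. The 3 genes called higher at day 12 were Slc25a33, a pyrimidine nucleotide carrier (2.80 ± 0.420 and 4.68 ± 0.292 FPKM, adjusted p = 0.0490), and the ribosomal proteins Mrpl11 (0.0447) and Mrpl24 (0.0483).

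At day 10, when no mitochondrial messenger passed, more of these nuclear genes did, as did more of all genes (20.2%, and 6.71% at day 12). The median log2 difference over all genes was 0.17 at day 10, and the lists were not tested again after rescaling. Of 75 tested mitochondrial ribosomal proteins 27 were called higher and 0 lower, beside 15% and 5.12% of all genes. The largest differences were those of Mrps26 (10.8 ± 2.27 and 17.9 ± 0.943 FPKM, adjusted p = 0.00827) and Mrps16 (11.2 ± 3.83 and 18.2 ± 3.06 FPKM, 0.0380). Of 29 RNA processing genes 5 were called higher and 0 lower, beside the same 15% and 5.12% of all genes. Among them were Fastkd5, needed to process mitochondrial messengers that no transfer RNA flanks (5.73 ± 0.921 and 9.59 ± 0.768 FPKM, 0.0102), the methyltransferase Trmt5 (9.61 ± 1.38 and 15.3 ± 0.962, 0.0102) and Lrpprc (25.3 ± 3.37 and 34.4 ± 2.38, 0.0444). Of 24 transcription and maintenance genes 2 were called higher, beside the same 15% of all genes. They were the exonuclease Mgme1, listed as 8430406I07Rik, and the single-strand binding protein Ssbp1 (18.4 ± 0.758 and 28.7 ± 2.75 FPKM, 0.00753).

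Fastkd5 was also higher at day 0 (12.0 ± 1.18 FPKM in control and 26.9 ± 3.83 in knockout, limma adjusted p = 0.00158) and at day 5 (12.3 ± 0.917 and 19.6 ± 1.98, 0.00673). Of 29 RNA processing genes 3 were called higher and 0 lower at day 0, and 2 and 0 at day 5. Of 24 transcription and maintenance genes 0 were called higher and 2 lower at day 0. Over all genes 14.5% were called at day 0 and 10.4% at day 5, in either direction. At day 0, Slirp (66.7 ± 4.26 and 78.4 ± 0.959 FPKM, 0.0386) and the RNA granule protein Grsf1 (54.7 ± 3.46 and 67.6 ± 3.85, 0.0268) were higher, and the primase-polymerase Primpol, listed as Ccdc111, was lower (5.21 ± 0.614 and 3.01 ± 0.214, 0.0120). Mgme1, higher at day 10, was also lower at day 0 (18.1 ± 1.49 and 14.2 ± 1.08 FPKM, limma adjusted p = 0.0406). Primpol lies on chromosome 8, whose genes had a median log2 difference 0.26 below that of the other chromosomes at that day.

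Among regulators of mitochondrial biogenesis, the coactivator Ppargc1a stood at 2.63 ± 0.741 FPKM in control and 0.523 ± 0.173 in knockout at day 8 (limma adjusted p = 0.0129), 3.41 ± 0.407 and 0.890 ± 0.220 at day 10 (0.000622), and 3.245 ± 1.043 and 1.403 ± 0.653 at day 12 (0.0827). The nuclear receptor Esrrg stood at 3.74 ± 0.554 and 0.517 ± 0.114 FPKM at day 8 and 3.92 ± 0.779 and 0.776 ± 0.0950 at day 10, log2 differences of -1.64 and -1.46. Esrrg lies on chromosome 1, whose genes had a median log2 difference shifted by -0.29 and -0.30 from the other chromosomes at these days. Of the biogenesis list, Ppargc1a and Esrrg were the only ones called lower at days 8 and 10, of 14 and 15 tested, and 0 of 15 were called at day 12. At day 10 another 3 of the list were called higher, namely Nrf1, Esrrb and Sirt1, which are named here after their values were seen. Over all genes tested, 2% were called lower at day 8, and 5.12% were called lower and 15% higher at day 10.

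Of the mitochondrial protein stress genes, 6 of 15 tested were called higher at day 10, beside 15% of all genes, and 0 of 15 at day 12. Asns, asparagine synthetase, stood at 47.0 ± 10.7 and 81.7 ± 9.16 FPKM at day 10 (limma adjusted p = 0.00673), and the transcription factor Atf4 at 72.5 ± 11.4 and 107 ± 5.65 (0.0175).

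The embryoid bodies of the lines also differed in cell type markers. In bulk samples fewer cells of a type and less RNA per cell cannot be told apart. Cardiomyocyte markers were called lower in 11 of 12 tested at day 8, where 2% of all genes were, and in 11 of 13 at day 12, where 3.48% were. Their summed level was 1406 to 1665 FPKM in the control libraries and 218 to 313 in the knockout libraries at day 8, and 1094 to 1275 and 408 to 486 at day 12. At days 8 and 12 no marker was at 0 throughout a group, but Ttn was listed at 0 in some libraries of both lines. It stood at 75.5, 0 and 0 FPKM in control and 9.81, 14.2 and 0 in knockout at day 8. At day 12 Ttn stood at 41.1, 0 and 0 FPKM in control and 13.5, 12.4 and 0 in knockout. At day 10 it was listed at 0 in every control library and stood at 14.6, 20.1 and 22.3 FPKM in knockout. Its call as higher that day (limma adjusted p = 1.43e-08) thus rests on listed zeros, which can be failed estimates. Myh6, the heart myosin, stood at 122 ± 28.6 and 11.7 ± 2.14 FPKM at day 8 and 155 ± 15.8 and 41.0 ± 7.78 at day 12. The means of 10 of 11 mitochondrial messengers lay above control at day 8, where none passed the threshold, and those of 10 of 11 below it at day 12. Over all genes tested, 36.2% of log2 differences were below 0 at day 8 and 42.3% at day 12. How the mitochondrial values relate to the heart markers was not tested.

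Visceral endoderm markers summed to 138 to 322 FPKM in control and 194 to 228 in knockout at day 8, and to 596 to 966 and 296 to 581 at day 12, where 1 of 8 was called lower, beside 3.48% of all genes. Blood and endothelial markers were called lower in 4 of 5 tested at day 8 and 4 of 6 at day 12, beside 2% and 3.48% of all genes. Pluripotency markers were called higher in 3 of 8 at day 8, where 1.28% of all genes were, and in 0 of 8 at day 12. Neural markers were called higher in 2 of 5 tested at day 8 and 1 of 5 at day 12, beside 1.28% and 3.22% of all genes. They summed to 29.7 to 34.0 FPKM in control and 49.3 to 61.6 in knockout at day 8, and to 33.4 to 38.7 and 39.0 to 44.4 at day 12. Of the nuclear-retained RNAs, 0 of 3 tested were called at day 8 or 12. Day 10 had calls as lower in 11 of 12 tested heart markers, 6 of 8 visceral endoderm and 5 of 6 blood and endothelial markers. Called higher that day were 7 of 8 pluripotency markers, 1 of 5 neural markers and 1 of 12 heart markers, Ttn. Over all genes 5.12% were called lower and 15% higher at day 10. For genes of chromosome 1, where the pseudogene copy lies, the median log2 difference was set against that of the other chromosomes. The shift was -0.052 and -0.087 at days 0 and 3. It was -0.27, -0.29, -0.30 and -0.28 at days 5, 8, 10 and 12. The part of these differences in the mitochondrial values was not tested.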

How the data were processed

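Total RNA of 36 libraries was prepared with a kit that removes ribosomal RNA, per the labels' protocols. The authors deposited FPKM, 1 table per day. The submitters' processing notes name TopHat, Cufflinks and mm9; versions, annotation, treatment of multiply aligned reads and scaling between libraries are not given in the sources used here. FPKM holds no read counts, so absolute depth is unknown. A library summed to 294740 to 403675 FPKM, and control replicate 1 of day 3 was lowest.

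Members were taken by symbol. The members and gene lists were chosen with earlier results of these data known. Each day was tested alone with limma 3.58.1 (R 4.3.3; trend, two-sided, pseudocount 1 FPKM, mean of at least 1 FPKM, adjusted p under 0.05), after a test on simulated data, and the interaction and day-averaged fits used 36 libraries. Named nuclear genes are 6 fixed factors and, per list and day, up to 2 called genes of largest difference without overlap. Positions and sequences are from GRCm38 (GENCODE M21), since the tables carry none, and copies were found with BLAST 2.17.0. Older symbols were checked by Ensembl identifier. Alternatives were another pseudocount, no filter, 2 rescalings, no trend, a replicate block, and leaving out libraries. Python 3.11.15, pandas 2.3.3, numpy 2.4.6 and matplotlib 3.10.9 were used.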

Additional observations from a re-analysis of the deposited data

Results flagged for a closer look

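For 4 protein genes the difference between LncCPR-KO and control changed with the day by limma's F test of the genotype by day interaction over 36 libraries, with Benjamini-Hochberg adjustment over all genes tested: mt-Co2 (adjusted p = 0.00637304), mt-Nd2 (0.00655647), mt-Nd1 (0.0144577) and mt-Cytb (0.0156166). In each the knockout libraries lay wholly above control at day 8, where none passed the day's own test, and wholly below at day 12, where all 4 passed. Over all genes 17.1% passed the same test.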

How the results depend on the processing

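Directions of the 7 genes called at day 12 held under every alternative run. Of the 13 protein genes, 7 passed at day 12, 2 with no filter on low values, 4 with the replicate block and 2 to 6 when 1 library was left out. For the interaction the count was 4, and 0 to 5 with a replicate left out of every day. Leaving out 1 library gave 0 to 1 genes at days 0, 3 and 5, where the count was 0. At day 8 rescaling by the median ratio of nuclear genes gave 1, and at day 10 no filter gave 1. Averaged over days the count was 0, but 2 under either rescaling, 1 without trend, 0 to 1 with a replicate left out, and 1 without the 4 libraries with mt-Rnr2 above 0, an alternative chosen after seeing the data. The cause was not tested. mt-Nd3 at day 12 reversed without control replicate 1, and ran from -0.066 to 0.48 over the libraries left out. At the other days and averaged, 0 of 56 log2 differences of single genes were called, and 33 changed sign in at least 1 alternative. Median rescaling moved the median of all genes by over 0.1 at days 3, 5 and 10, from 0.15, 0.13 and 0.17 to 0.0067, 0.0034 and 0.0035.

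Replicates with the same number were not treated as pairs: correlations of their deviations over genes ran from -0.12 to 0.27 over 18 comparisons, so not all passed 0.1, although mt-Rnr1 followed the number in both lines at days 3, 8 and 10. The headers show only that a table's blocks hold 1 library of each line. Filters leave mt-Nd4l untested, and the unknown depth limits what the lowest genes can show.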
